A study of Homo sapiens with 6 samples.

Results

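Long noncoding RNA (lncRNA) genes that were well counted in HK-2 cells were followed between cells with and without overexpressed PPM1K. The 219 genes were chosen by their counts: a deposited gene type of lncRNA and an average raw count of 200 or more over all 6 samples, after 18 hosts of small nucleolar RNAs past that count (SNHG genes, GAS5, ZFAS1 and EPB41L4A-AS1) had been set aside. They were 219 of the 8180 lncRNA genes and 31369 genes in the count table. The genes just inside the limit were RP11-96H19.1, MMP25-AS1 and ADIRF-AS1, with mean counts of 200.5, 200.8 and 201.2, and those just outside were PAXIP1-DT, RP11-149I23.3 and RP11-686D22.8, with 199.8, 199.2 and 197.7. Because the mean was taken over both groups, 18 genes reached 200 in the overexpressing group only and 10 in the control group only, and such genes had to differ between the groups. The other 191 had a mean of at least 200 in each group. All 219 passed the filter on low counts of the test across genes.

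Human kidney-2 (HK-2) is an immortalised line of human proximal tubule epithelium. The 3 NC samples carried the wild-type genotype label and the 3 OE samples the PPM1K overexpression label, and all 6 shared a chronic kidney disease treatment label, day 10 and one protocol, lipofection of a PPM1K plasmid, which did not say what the NC cells received. PPM1K encodes the mitochondrial phosphatase of branched-chain keto acid dehydrogenase, and its raw counts were 37, 19 and 53 in NC and 3294, 3531 and 2919 in OE. The sample titles used a prefix for short hairpins (shControl, shPPM1K), which went against the direction of these counts, whereas the genotype label followed it. One line was used, the cell line field read HK-2, HK-4 and so on up to HK-12 across the samples, and no label tied the replicates to separate cultures, so p-values measured only the spread between these libraries. Libraries held 34635770 to 39850802 counted reads. Of 10 proximal tubule markers only PAX8 reached 1 FPKM (fragments scaled to gene length and library size) in every sample. In every sample 5 stayed under 0.1 FPKM, and CUBN, AQP1 and HNF4A were listed at 0 in at least 1 sample. Of 7 genes listed as epithelial markers 6 stood at 1 FPKM or more in every sample. They were KRT8, KRT18, KRT19 and EPCAM, and also CDH2 and VIM, which are not particular to epithelium. The 1 below was CDH1, at a mean of 0.23 FPKM. No endothelial, fibroblast or immune marker reached 1 FPKM in every sample.

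A lncRNA is transcribed by RNA polymerase II and often spliced and polyadenylated, but it carries no long open reading frame that is known to be used. Some act as the RNA itself, such as MALAT1 in nuclear speckles, NEAT1 as the scaffold of paraspeckles and NORAD as a decoy for Pumilio proteins. Others are precursors from which microRNAs (miRNAs) are cut, or are transcribed away from the start site of a coding gene, where the act of transcription can matter more than the product. Many transcripts annotated as lncRNA are read-through or retained-intron forms of a coding gene, and the reads of those genes cannot be told from reads of the coding mRNA.

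Mature miRNAs encoded on the same strand inside these genes are shown first, since most of their hosts moved. A mature or hairpin miRNA sequence of RefSeq (GRCh38.p14) lay inside 17 of the 219 genes. Capitals mark the seed, bases 2 to 8, with which a miRNA pairs to its targets. Sequences are written 5′ to 3′.
let-7i-5p, chr12:62603691-62603712, plus strand: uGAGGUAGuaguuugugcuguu
miR-4458, chr5:8460933-8460951, plus strand: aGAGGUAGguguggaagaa
miR-30a-5p, chr6:71403595-71403616, minus strand: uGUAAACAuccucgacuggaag
miR-30c-5p, chr6:71377003-71377025, minus strand: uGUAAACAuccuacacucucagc
miR-22-3p, chr17:1713914-1713935, minus strand: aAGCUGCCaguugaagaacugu
miR-193b-3p, chr16:14304017-14304038, plus strand: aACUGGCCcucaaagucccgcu
miR-365a-3p, chr16:14309340-14309361, plus strand: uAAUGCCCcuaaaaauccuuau
miR-570-3p, chr3:195699460-195699481, plus strand: cGAAAACAgcaauuaccuuugc
miR-4435, chr2:87629764-87629785, plus strand: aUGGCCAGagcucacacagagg
The seed GAGGUAG was shared by let-7i-5p, of the host RP11-631N16.2 (now MIRLET7IHG), and miR-4458, of MIR4458HG. GUAAACA was shared by miR-30a-5p and miR-30c-5p, both of LINC00472. The identical mature miR-4435 lay in MIR4435-2HG and in its close copy CYTOR.

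NORAD holds repeated Pumilio elements, and 4 of them are printed with the numbered element TGTANATA in capitals and 11 bases on either side, read from the GENCODE transcript (GRCh38). The bases after elements 4 and 9 also hold the next elements, 5 and 10, left in small letters.
NORAD element 2, chr20:36049803-36049832, minus strand: cctcactactgTGTATATAgttgacaatgc
NORAD element 4, chr20:36049501-36049530, minus strand: ttacttatctgTGTATATAgtgtacataaa
NORAD element 9, chr20:36048304-36048333, minus strand: ctttgctatacTGTATATAttgtatatata
NORAD element 11, chr20:36047971-36048000, minus strand: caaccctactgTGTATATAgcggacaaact
The NORAD transcript of GENCODE release 44, 5401 bases long, held 15 such elements, or 2.78 per kilobase. Over the longest transcripts of all 18824 lncRNA genes of that release the rate was 0.106 per kilobase. Among the 208 well-counted genes with a lncRNA transcript there, 146 held no element. HCG11 held 16 elements in 5696 bases, or 2.81 per kilobase, and was the 1 gene of the 208 with a higher rate than NORAD.

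The start regions of 3 genes are printed for the head-to-head pairs and for the let-7i host below, as the 250 bases before and 50 after the RefSeq start site (GRCh38.p14). RefSeq gave such a window for 119 of the 219 genes. Capitals mark any match, on either strand, to the C/EBP-ATF composite TGATGCAA, the AP-1 motif TGANTCA, the E-box CACGTG, the hypoxia cores ACGTG and GCGTG (the E-box contains the first), the CRE TGACGTCA, the antioxidant motif TGACNNNGC or the kappa B motif.
EIF3J-DT, chr15:44536874-44537173, minus strand: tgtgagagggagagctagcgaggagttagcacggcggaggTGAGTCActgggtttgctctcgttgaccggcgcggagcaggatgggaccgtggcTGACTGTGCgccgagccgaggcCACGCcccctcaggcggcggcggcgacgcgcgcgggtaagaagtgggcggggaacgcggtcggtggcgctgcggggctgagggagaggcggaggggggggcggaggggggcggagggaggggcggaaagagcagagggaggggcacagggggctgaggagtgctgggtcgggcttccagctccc
RNASEH1-DT, chr2:3558136-3558435, plus strand: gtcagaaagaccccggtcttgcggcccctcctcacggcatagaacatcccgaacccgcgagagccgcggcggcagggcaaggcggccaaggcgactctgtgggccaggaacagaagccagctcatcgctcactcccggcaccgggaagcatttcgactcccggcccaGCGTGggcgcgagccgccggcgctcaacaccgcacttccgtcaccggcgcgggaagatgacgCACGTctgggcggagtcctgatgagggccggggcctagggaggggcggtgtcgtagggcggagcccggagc
MIRLET7IHG, chr12:62602493-62602792, plus strand: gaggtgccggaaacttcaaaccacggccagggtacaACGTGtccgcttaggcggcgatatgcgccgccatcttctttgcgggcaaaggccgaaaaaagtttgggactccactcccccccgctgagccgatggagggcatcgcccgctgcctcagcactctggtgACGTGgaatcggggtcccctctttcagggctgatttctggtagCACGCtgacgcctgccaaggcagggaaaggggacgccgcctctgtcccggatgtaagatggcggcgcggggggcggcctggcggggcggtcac
Matches in the 119 windows against all 35116 RefSeq windows were 1.68% and 0.866% for the composite, 9.24% and 7.71% for AP-1, 10.9% and 7.26% for the E-box, 35.3% and 21.4% for ACGTG, 45.4% and 36.5% for GCGTG, 2.52% and 1.85% for the CRE, 21.8% and 13.3% for the antioxidant motif, and 3.36% and 1.91% for kappa B. The median GC content was 64.3% in the windows of these genes and 58.7% in all windows.

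Between OE and NC, 77 of the 219 genes were higher and 65 were lower with an adjusted p under 0.05 (quasi-likelihood test of edgeR over 15878 genes, with p-values adjusted by Benjamini-Hochberg), and 77 did not pass. Over all genes tested, 24.9% were higher and 23.7% lower, so the shares of these genes, 35.2% and 29.7%, were read against those values. Protein-coding genes with the same minimum count passed in either direction in 58.8% of 9870 cases, against 64.8% here, and tested lncRNA genes below the limit in 28.3% of 1511. The groups did not overlap in 83 genes with every OE sample above every NC sample, and in 64 with every OE sample below, whereas 28.2% and 27.1% of all tested genes were so placed. The changes were small and balanced. The median log2 fold change was 0.04, against -0.0032 over all genes tested, and 5% of the 219 genes lay below -0.74 and 5% above 0.89.

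A gene was called when the adjusted p was under 0.05 and the fold change was over 2 or under 0.5, the limits used in the study. By this rule 9 of the 219 genes (4.11%) were called higher and 5 (2.28%) lower. Over all 15878 genes tested the shares called were 1.73% higher and 3.79% lower. Among the 191 genes past 200 in each group, 3 were called higher and 3 lower, since the other 8 called genes had reached the count limit in 1 group only. Through OE these were TNFRSF14-AS1, LINC00941 (the entry that keeps the symbol), SCIRT, ZNF790-AS1, ATP2A1-AS1 and LINC00623. Through NC they were MAP3K4-AS1 and RP11-596C23.6. For these 8 the selection itself required a difference, so the fold changes and p-values given below describe them and are no independent support. The same holds for genes without a call that reached the limit in 1 group only, wherever they are named or counted. Without NC replicate 2, 8 were called higher and 3 lower, where 1.81% of all genes tested then were called higher and 3.52% lower, with 11 of the 14 calls kept, 3 lost and none gained. The 3 lost calls were LINC01184, RP11-631N16.2 and RP11-596C23.6.

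**Figure D1:**
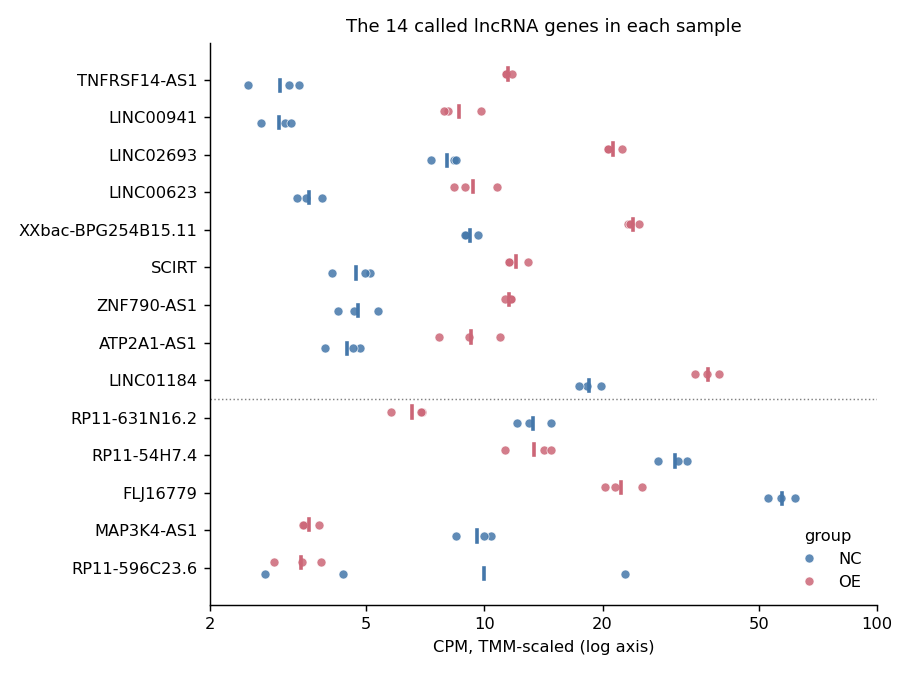
CPM (counts scaled to library size with TMM factors, log axis) of the 14 called lncRNA genes in the 3 NC and 3 OE samples, with points for samples and a vertical bar for each group's mean. Of the 14 genes, 13 had groups that did not overlap, and RP11-596C23.6 at the bottom had 1 NC sample at 22.9 CPM beside 2.76 and 4.37. Genes that reached the count limit in 1 group only had to differ by selection.

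TNFRSF14-AS1 rose the most. It runs over chr1:2549920-2557031 on the minus strand (GRCh38, GENCODE release 44), in 5 exons opposite to TNFRSF14, the receptor HVEM of the TNF receptor family. Its raw counts were 117, 88 and 114 in NC and 419, 448 and 428 in OE. The groups lay far apart, and the log2 fold change was 1.93 (SE 0.12, adjusted p = 4.0e-11), for a gene that reached the count limit through OE only. TNFRSF14 itself was higher by a log2 fold change of 0.52 (adjusted p = 4.1e-06).

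LINC00941 followed. The deposited table used this symbol for 2 genes that overlap on chromosome 12, and the one that keeps it today (ENSG00000235884, chr12:30755167-30802602, plus strand) had counts of 108, 113 and 97 in NC and 362, 320 and 287 in OE. Its log2 fold change was 1.52 (SE 0.13, adjusted p = 5.8e-09). The other (ENSG00000285517) had a mean count of 298.7 and rose by a log2 fold change of 0.76 (adjusted p = 1.3e-05). All exonic bases of the first lie in exons of other annotated genes of its strand, so how reads were divided between these entries is uncertain. CAPRIN2, the coding gene on the opposite strand, stood at a log2 fold change of -0.05 (adjusted p = 0.62).

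SCIRT, known as a stem cell inhibitory RNA, had counts of 178, 144 and 178 in NC and 477, 458 and 420 in OE, a log2 fold change of 1.35 (SE 0.11). LINC02693 had 254, 294 and 304 against 764, 889 and 750, a log2 fold change of 1.40 (SE 0.087). Neither overlaps a coding gene on either strand, and in both every OE sample exceeded every NC sample by a wide margin.

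ZNF790-AS1, opposite to a zinc finger gene, had counts of 162, 149 and 193 in NC and 432, 461 and 411 in OE (log2 fold change 1.28, SE 0.11), while ZNF790 stood at -0.41 and did not pass (adjusted p = 0.083). ATP2A1-AS1, opposite to the gene of the muscle calcium pump SERCA1, had 168, 163 and 141 against 338, 433 and 278 (log2 fold change 1.06, SE 0.13). Its call was lost without NC replicate 3 and without OE replicate 2, at log2 fold changes of 0.92 to 1.17 over the samples left out. LINC01184 (now SLC12A2-DT), transcribed away from the gene of the Na-K-2Cl cotransporter NKCC1, had 637, 612 and 713 against 1463, 1363 and 1345. It sat on the limit, with a log2 fold change of 1.00 (SE 0.077) and of 0.95 to 1.06 over the samples left out.

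The remaining higher calls were of genes that overlap other annotated genes, and how reads were divided between them was not measured. LINC00623 had counts of 122, 136 and 120 in NC and 398, 330 and 324 in OE, a log2 fold change of 1.39 (SE 0.13), but it overlaps a U1 small nuclear RNA gene (RNVU1-4) and lies in a duplicated stretch of chromosome 1. XXbac-BPG254B15.11 had 312, 314 and 347 against 860, 982 and 853 (log2 fold change 1.38, SE 0.081). Of its exonic bases 68.8% lie in exons of HSPA1B, a heat shock protein 70 gene, which fell by 0.73 on the log2 scale (adjusted p = 1.1e-08), and it also overlaps the snoRNA host SNHG32, which was higher by 1.46 (adjusted p = 1.6e-12).

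Of the lower calls, FLJ16779 was the best counted. It is a single exon on the plus strand of chr20:63253978-63261615, inside NKAIN4, a gene of the opposite strand whose product interacts with the sodium pump. Its counts were 1834, 2004 and 2227 in NC and 933, 851 and 736 in OE. The log2 fold change was -1.36 (SE 0.079, adjusted p = 1.4e-11), and that of NKAIN4 was -1.55 (adjusted p = 7.9e-12). The entries of both strands of the locus were therefore lower in OE, though the strand setting of the counting is not given.

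MAP3K4-AS1 starts 615 bases from MAP3K4, a kinase of stress-activated MAP kinase cascades, on the opposite strand. It had counts of 294, 366 and 358 in NC and 140, 137 and 125 in OE, a log2 fold change of -1.43 (SE 0.12, adjusted p = 4.4e-09). MAP3K4 fell by much less, with a log2 fold change of -0.22 (adjusted p = 0.0025). RP11-54H7.4 (now LINC03061), with no coding gene on either strand, had 964, 1154 and 1119 against 523, 585 and 410 (log2 fold change -1.19, SE 0.094).

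RP11-631N16.2, the let-7i host, had counts of 451, 519 and 435 in NC and 256, 229 and 251 in OE. The groups were far apart, with a log2 fold change of -1.02 (SE 0.11, adjusted p = 9.0e-08). Without NC replicate 2 it was -0.94 (adjusted p = 8.7e-07), so the change held and the fold change fell short of 2. The call was also lost without OE replicate 2 and in both tests on FPKM values described below.

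RP11-596C23.6 owed its call to 1 sample. It had counts of 96, 805 and 157 in NC and 142, 136 and 106 in OE, so that the groups overlapped. The log2 fold change was -1.55 (SE 0.46, adjusted p = 0.0085), and without NC replicate 2 it was -0.07 (adjusted p = 0.81). The gene overlaps RN7SL2, a gene of the 7SL RNA of the signal recognition particle, which itself had no counted read in any sample. In the same NC replicate 2 the other 7SL gene RN7SL1 had 1122 counts, beside 159 and 309 for NC replicates 1 and 3 and 199 to 235 for OE. 7SK had 3264, beside 254 and 527. RPPH1, the RNA of ribonuclease P, had 142 in that sample and 5 to 30 in the others. NC replicate 2 also had reads in 6152 lncRNA genes, whereas the other samples had reads in 4390 to 4762. These values moved with the call, and their part in it was not tested beyond leaving the sample out.

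**Figure D2:**
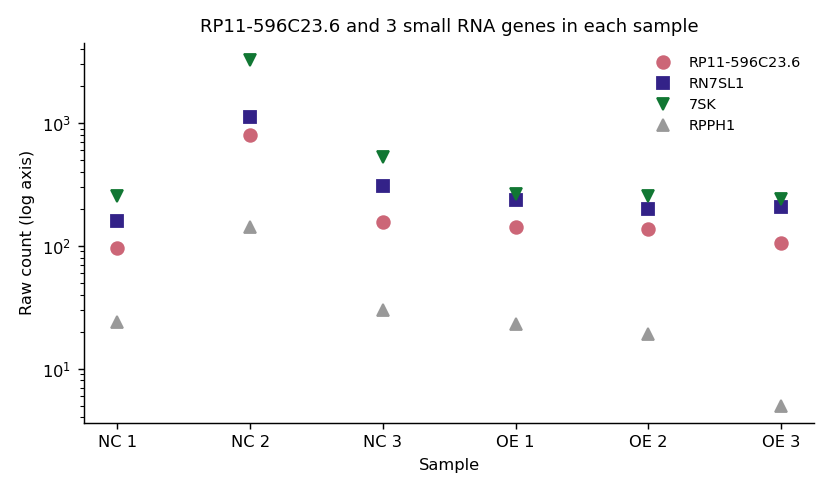
Raw counts (log axis) of RP11-596C23.6 and of the small RNA genes RN7SL1, 7SK and RPPH1 in each of the 6 samples. All 4 were highest in NC replicate 2, with 805 counts for RP11-596C23.6 against 96 to 157 in the other samples.

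Most of the 219 genes did not follow that sample. NC replicate 2 was the highest NC sample in 79 of them and the lowest in 77, its median ratio to the mean of the other NC samples was 1.00, and it exceeded that mean by more than 1.25 times in 8 genes. The 219 genes took 0.760% to 0.821% of the counted reads in every sample. MALAT1 was among the 8, with a ratio of 1.33.

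**Figure D3:**
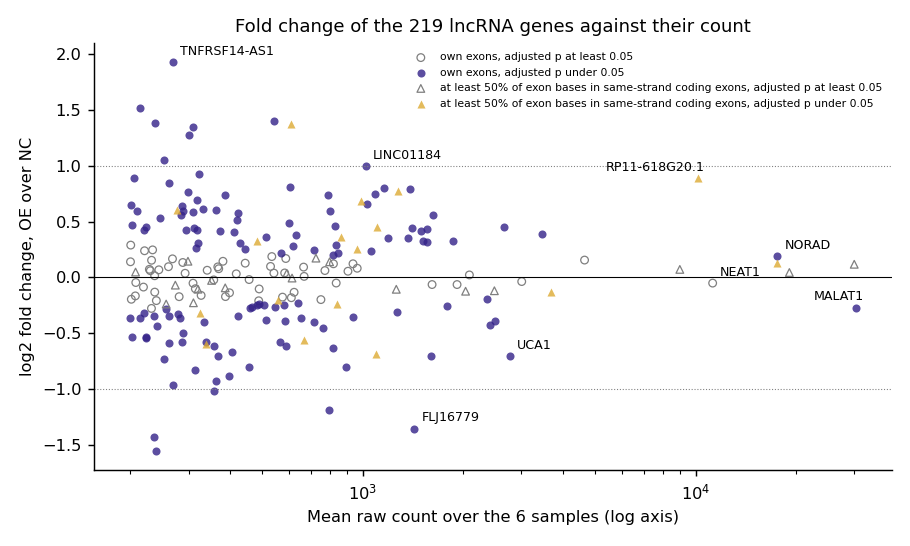
The log2 fold change (OE over NC) of each of the 219 lncRNA genes against its mean raw count over the 6 samples (log axis), with dotted lines at a fold change of 2 in either direction. Filled symbols passed at an adjusted p under 0.05, triangles mark genes with at least 50% of their exonic bases inside coding exons of their strand, and of the 102 genes with 500 or more counts on average 3 were called higher and 2 lower.

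Among lncRNAs of nuclear bodies, levels are given in FPKM. MALAT1 had 81.7, 112.7 and 91.8 FPKM in NC and 87.5, 67.3 and 85.8 in OE, so the groups overlapped. Its log2 fold change of -0.27 passed (SE 0.097, adjusted p = 0.026), but without NC replicate 2 it was -0.12 (adjusted p = 0.26). NEAT1 had 12.02, 14.22 and 11.95 FPKM in NC and 14.25, 10.62 and 12.52 in OE, and its log2 fold change was -0.05 (SE 0.084, adjusted p = 0.64), whose sign turned without NC replicate 2. Of 15 genes of paraspeckle proteins, 5 were higher and 3 lower at the adjusted p, against a background of 24.9% and 23.7%. They included HNRNPH3, an RNA-binding protein, at a log2 fold change of 0.75, the cleavage factor subunit NUDT21 at 0.40 and the core protein SFPQ at -0.24.

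NORAD had 75.5, 78.9 and 75.7 FPKM in NC and 84.1, 83.2 and 99.1 in OE. Every OE sample was above every NC sample, and the log2 fold change was 0.19 (SE 0.059, adjusted p = 0.011). HCG11, the other gene dense in Pumilio elements, had 6.32, 6.50 and 5.96 FPKM in NC and 4.58, 5.11 and 5.64 in OE, and its groups too did not overlap, with a log2 fold change of -0.31 (SE 0.072, adjusted p = 0.0011). The Pumilio gene PUM2 was higher by 0.28 on the log2 scale (adjusted p = 6.2e-04). Among listed partners of NORAD, TOP1, the topoisomerase, was at 0.77 and the mRNA export factor ALYREF at -0.73.

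A list headed cytoplasmic binders of proteins or miRNAs had 8 well-counted lncRNAs. Of these, 4 were higher and 1 lower, with a median log2 fold change of 0.16, beside 24.9% higher and 23.7% lower over all genes tested. Where these RNAs lie in the cell was not measured, and the heading is doubtful for FTX and JPX. LINC00963 was the most changed, at 37.6, 32.8 and 37.3 CPM (counts scaled to library size) in NC and 51.5, 53.2 and 53.6 in OE (log2 fold change 0.56, SE 0.064). FTX, a gene of the X inactivation centre, was the lower one at -0.40. CRNDE, the HuR-binding OIP5-AS1 and JPX had log2 fold changes of 0.12, 0.06 and -0.06 and did not pass.

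Of the growth-associated lncRNAs, 5 were well counted, of which 2 were higher and 2 lower (24.9% and 23.7% of all genes tested). UCA1, first described in bladder cancer, had 95.4, 93.2 and 95.8 CPM in NC and 59.1, 59.7 and 55.7 in OE. Its samples lay close together within each group, and the log2 fold change was -0.70 (SE 0.052, adjusted p = 5.5e-10). CASC19, in the gene-poor region beside MYC, was lower too, at 19.6 ± 1.03 against 12.8 ± 0.19 CPM (SD, n = 3 in each), a log2 fold change of -0.61. PVT1, the next gene after MYC, and LINC00511 were higher, by 0.36 and 0.36. LINC00973 was at 0.08 and did not pass. Stress-responsive lncRNAs were LINC00941, MIR22HG, NEAT1 and LUCAT1, the last at a log2 fold change of -0.05 (adjusted p = 0.69). NEAT1 was the only one of 12 listed p53-responsive lncRNAs to be well counted, and none of the 9 listed for inflammation was.

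**Figure D4:**
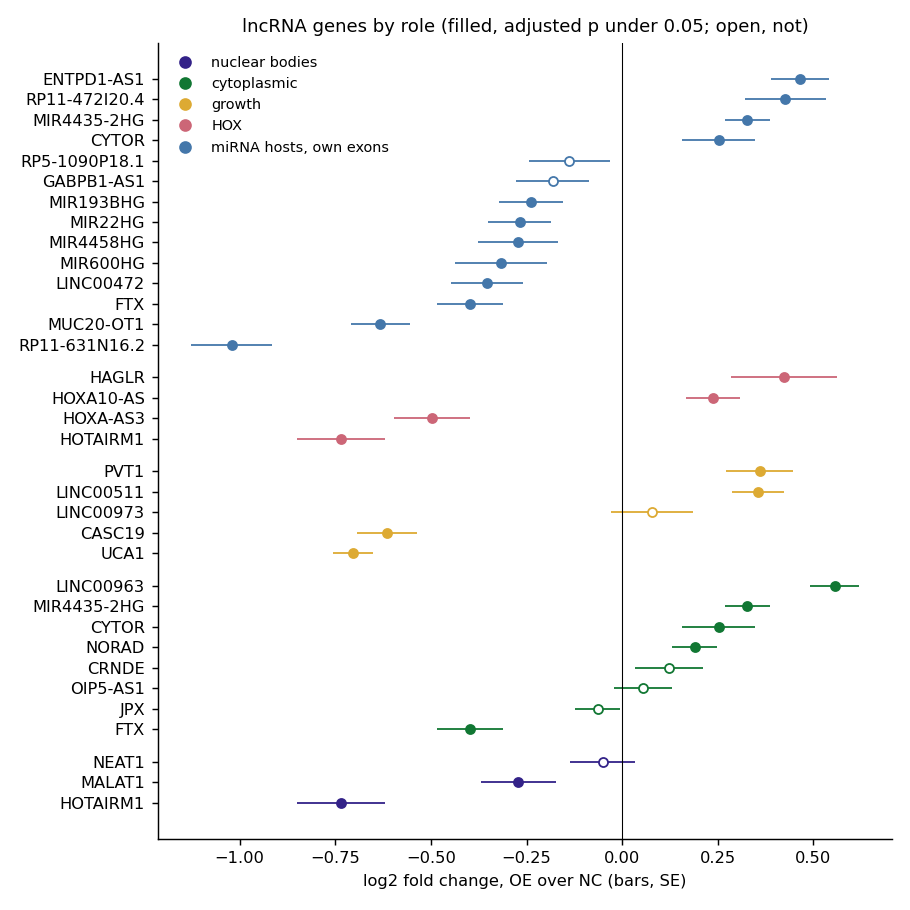
The log2 fold change (OE over NC) of lncRNA genes by role, with bars of 1 SE, filled where the adjusted p was under 0.05 and open where not. The miRNA hosts marked as own exons have under 50% of their exonic bases in coding exons of their strand, and they lie mostly left of 0. RP11-631N16.2 (let-7i) is the lowest at -1.02 and ENTPD1-AS1 the highest at 0.46.

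Hosts of miRNAs were mostly lower. In 14 hosts, under 50% of the exonic bases lay in coding exons of their strand. Of these 14, 8 were lower, 4 higher and 2 did not pass, against 23.7% and 24.9% of all tested genes. The 2 hosts with the let-7 seed printed above were both lower, RP11-631N16.2 by the largest margin and MIR4458HG at a log2 fold change of -0.27 (SE 0.10, adjusted p = 0.037), the latter with overlapping groups. LINC00472, which spans both miR-30 sequences, had 28.5, 32.1 and 26.1 CPM in NC and 23.2, 19.3 and 25.5 in OE (log2 fold change -0.35, adjusted p = 0.0038). MIR22HG (-0.27), MIR193BHG (-0.24), MIR600HG (-0.32) and FTX (-0.40), from which miR-374 and miR-421 are cut, were lower by similar amounts, and MUC20-OT1, with miR-570, was lower by more (-0.63). MIR600HG missed the threshold without NC replicate 2 (adjusted p = 0.14). The higher hosts were ENTPD1-AS1 (0.46), RP11-472I20.4 with miR-129 (0.43), and the near-identical pair MIR4435-2HG (0.33) and CYTOR (0.25). For this pair the division of reads is uncertain. These libraries did not measure mature miRNAs.

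Of the 4 lncRNAs inside HOX clusters, 2 were higher and 2 lower, where 24.9% of all genes tested were higher and 23.7% lower. HOTAIRM1, of the HOXA cluster, had 7.87, 8.81 and 9.48 CPM in NC and 5.74, 5.11 and 4.87 in OE, with no overlap (log2 fold change -0.74, SE 0.12, adjusted p = 2.1e-05). HOXA-AS3 was at -0.50, HOXA10-AS at 0.24 and HAGLR of the HOXD cluster at 0.42. HOTAIRM1 reached the count limit through NC only and HAGLR through OE only. The selection required both to differ, so their values describe them and are no independent support.

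Pairs with a shared start region were compared next. In 43 cases a well-counted lncRNA gene started within 1000 bases of a coding gene on the opposite strand, and both genes of each pair were tested. Only lncRNA genes with under 50% of their exonic bases in coding exons of their strand were taken. Both passed in the same direction in 10 pairs and in opposite directions in 4, the lncRNA alone passed in 12, the coding gene alone in 11 and neither in 6. Of the lncRNA genes that passed, PPP3CB-AS1 and HAGLR reached the count limit through OE only and MAP3K4-AS1 and HOTAIRM1 through NC only. The selection required these to differ, so they are no independent support in the pair counts or the correlation. The log2 fold changes had the same sign in 28 pairs (Pearson's r = 0.33 and Spearman's rho = 0.36 across the 43 pairs, a description over genes of the same 6 samples).

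Pairs that moved together included LINC01184 with SLC12A2 (1.00 and 0.64), PPP3CB-AS1 with a calcineurin subunit gene (0.89 and 0.28), MAGI2-AS3 with the scaffold gene MAGI2 (0.45 and 0.72) and, downward, RP11-37B2.1 (now RIPK2-DT) with RIPK2, the kinase of NOD signalling (-0.46 and -0.66).

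EIF3J-DT and EIF3J moved apart. EIF3J encodes a subunit of translation initiation factor 3, and its start site lies 79 bases from that of EIF3J-DT, so that the window printed above covers both. EIF3J-DT had 9.63, 8.50 and 10.4 CPM in NC and 6.99, 6.45 and 5.64 in OE, a log2 fold change of -0.58 (SE 0.11, adjusted p = 2.4e-04). EIF3J had 116.2 ± 3.95 CPM in NC and 170.5 ± 3.46 in OE (SD, n = 3 in each), a log2 fold change of 0.55 (adjusted p = 8.9e-09). The EIF3J-DT window held 1 AP-1, 1 antioxidant and 1 GCGTG match.

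The other pairs in opposite directions were NNT-AS1 with NNT, the mitochondrial transhydrogenase (0.56 and -0.44), ZNF667-AS1 with ZNF667 (0.20 and -0.30) and RP11-242D8.1 with the autophagy receptor gene NBR1 (-0.33 and 0.19). Of these, RP11-242D8.1 did not pass without NC replicate 2 (adjusted p = 0.28), and neither did ZNF667-AS1 (adjusted p = 0.067). GARS1-DT, which overlaps GARS1 on the opposite strand from a start site 14753 bases away, was lower (17.6, 19.97 and 17.1 CPM in NC, 15.9, 13.6 and 12.4 in OE, log2 fold change -0.39, adjusted p = 0.0019). GARS1, the glycyl-tRNA synthetase, was higher at 1.09 (adjusted p = 1.5e-13).

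RNASEH1-AS1 (now RNASEH1-DT) moved while its neighbour did not pass. It starts 86 bases from RNASEH1, which encodes a nuclease for RNA in RNA-DNA hybrids, and had 29.5, 26.4 and 27.0 CPM in NC against 45.6, 49.4 and 48.4 in OE. The log2 fold change was 0.79 (SE 0.066, adjusted p = 3.7e-09), and that of RNASEH1 was 0.10 (SE 0.083, adjusted p = 0.35). WARS2-AS1 and UBA6-AS1 were alike in this, at 0.66 and 0.58, beside -0.02 for the mitochondrial tryptophanyl-tRNA synthetase WARS2 and -0.12 for the ubiquitin-activating enzyme UBA6. Conversely, WAC-AS1 and OTUD6B-AS1 were at 0.02 and -0.04 while WAC and OTUD6B were higher by 0.53 and 0.41. The difference between the 2 genes of a pair was not tested.

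**Figure D5:**
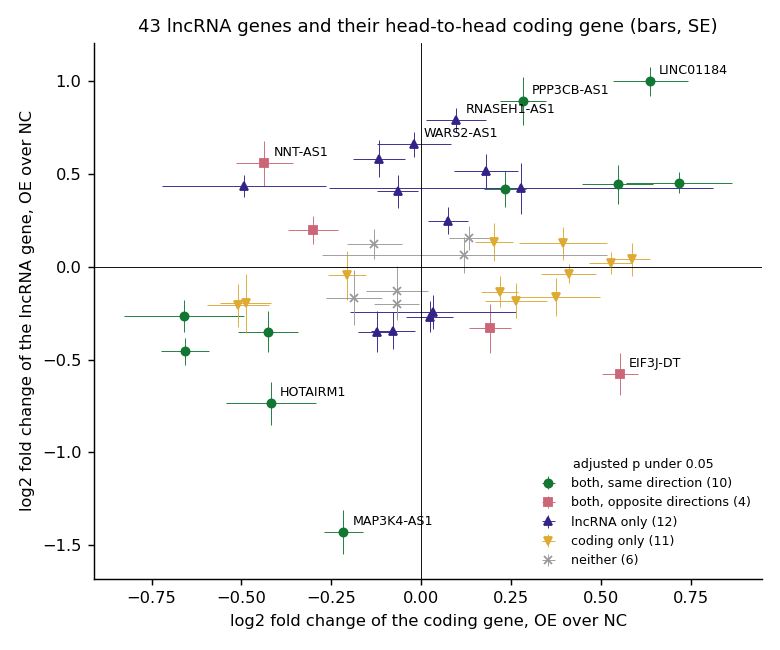
The log2 fold change (OE over NC) of 43 lncRNA genes against that of the coding gene that starts within 1000 bases on the opposite strand, with bars of 1 SE and symbols by which gene of the pair passed at an adjusted p under 0.05. EIF3J-DT lies in the lower right quadrant (-0.58 beside 0.55) and LINC01184 in the upper right (1.00 beside 0.64).

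The genes were also grouped by symbol, and a gene could stand in more than 1 group, since the antisense and divergent groups took current symbols as well as those of the deposited table. Over all genes tested 24.9% were higher and 23.7% lower, and of the 219 genes from which the groups were drawn 35.2% and 29.7%. Of 65 genes named antisense 26 were higher (40%) and 15 lower (23.1%), with a median log2 fold change of 0.13. Of 19 named as divergent transcripts 5 were higher (26.3%) and 6 lower (31.6%), with a median of -0.17. Of 31 numbered LINC genes 16 were higher (51.6%) and 8 lower (25.8%), with a median of 0.33. The antisense and LINC groups include genes that reached the count limit through OE only, such as TNFRSF14-AS1 and LINC00623. Others, such as MAP3K4-AS1 and LINC01111, reached it through NC only. Such genes had to differ, and the shares were not recomputed without them. Of 69 genes that the deposited table named by a clone or accession, 10 of which also stood in the antisense or divergent group, 15 were higher (21.7%) and 20 lower (29.0%), with a median of -0.02. In the annotation 89 genes overlapped a coding gene on the opposite strand only, 60 overlapped one on their own strand, 11 started beside one without overlap and 59 had no coding overlap. The genes that were higher had a median of 5770 exonic bases and 8 exon blocks, those that were lower 5227 and 6, and the rest 5060 and 5.

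For 35 of the 219 genes, at least 50% of the exonic bases lay inside exons of a coding gene on the same strand, and 7 of the 10 genes with the highest FPKM were of this kind. CH17-66N5.1 stood at 1525 ± 127 FPKM in NC and 1592 ± 124 in OE (SD, n = 3 in each) and had a mean count of 19133. RP11-197N18.2 had a mean count of 29965 beside 386.5 for OGFOD2 and 55.7 for ARL6IP4. For 34 of these genes at least 1 such coding gene was counted, and the lncRNA entry held a higher mean count than the best-counted of them in 15 and a lower one in 19. RP11-618G20.1 shares 99.0% of its exonic bases with coding exons around SNAPC1 and HIF1A, and its log2 fold change of 0.89 (adjusted p = 1.4e-11) stood beside 0.76 for SNAPC1, a subunit of the snRNA-activating complex, and 0.26 for HIF1A. The levels of these entries therefore could not be assigned to a noncoding transcript.

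The other 184 genes held 67 of the higher and 58 of the lower results at the adjusted p. They also held 8 of the 9 higher and all 5 of the lower calls. At the adjusted p, 36.4% of the 184 were higher and 31.5% lower, against 24.9% and 23.7% of all genes tested. Over all genes tested, 1.73% were called higher and 3.79% lower. The 184 were most of the genes followed, so holding most of the calls does not set them apart. Outside shared exons, the highest levels were those of MALAT1 (95.4 ± 15.8 FPKM in NC and 80.2 ± 11.2 in OE), NORAD (76.7 ± 1.92 and 88.8 ± 8.92) and LINC02274 (61.2 ± 3.11 and 47.3 ± 0.51, all SD, n = 3 in each). LINC02274 was lower at -0.39 (SE 0.054, adjusted p = 4.3e-06). A check of strand took 76 lncRNA genes with at least 90% of their exonic bases opposite to exons of a coding gene at 10 FPKM or more. Of these, 17 were at 0 or unlisted, and none reached 10% of the coding gene's FPKM. Counting that drops reads over both genes, or gives them to the coding gene, would leave low values too. The check therefore cannot show that reads were counted by strand.

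The nuclear RNA exosome degrades many lncRNAs and the transcripts that run away from coding start sites. Of 21 measured genes of the exosome and its adaptors, 13 were higher and 3 lower at the adjusted p, against 24.9% and 23.7% of all genes tested. Core subunits led the higher ones, with EXOSC8, EXOSC5 and EXOSC6 at log2 fold changes of 0.89, 0.84 and 0.82. ZFC3H1, of the adaptor for polyadenylated RNA, fell by 0.72 on the log2 scale, and the nuclease EXOSC10 by 0.35.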

How the data were processed

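Stranded mRNA libraries of 3 NC and 3 OE samples were sequenced as paired reads. The authors trimmed reads with FASTX-Toolkit, aligned them to GRCh38 with HISAT2 and deposited raw counts of uniquely mapped reads per gene, with FPKM values computed by the authors in a second table. The counting program and its strand setting are not given in the sources used here, and the labels list mm10 beside GRCh38. Groups came from the genotype label, and table columns were matched to samples by group and number. No per-sample column was left unmapped (0), and a table of the study's own comparisons was not used.

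Counts were tested with edgeR 4.0.16 (R 4.3.3, filterByExpr, TMM factors, quasi-likelihood F test, two-sided, Benjamini-Hochberg adjustment over 15878 genes), and CPM values, counts scaled to library size, used the TMM factors. The study's own test, DESeq2 (1.42.0), served as an alternative, as did limma 3.58.1 on log2(FPKM + 1) and log2(FPKM + 0.1). The fitting code was checked on simulated counts. Exons, positions and overlaps came from GENCODE release 44 (GRCh38), in which all 219 genes were found by gene ID without version, and 80 now carry another symbol, 57 of them only an identifier. Symbols are those of the deposited table. FPKM compared levels between genes, and counts compared groups.

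The genes and all lists were chosen with earlier results of these data known. Genes named were the called ones, the 10 with the highest mean FPKM, members of the role and symbol lists, those at the count limit, those whose call changed without NC replicate 2, and their coding partners. Depth limits fold changes of genes near 200 counts. With 3 samples in each group, no exact permutation test could reach p = 0.05 (the smallest is 0.1), so tests shared the spread across genes.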

Additional observations from a re-analysis of the deposited data

How the results depend on the processing

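Every member that passed at the adjusted p kept its direction under the other tests, normalizations and filter and in each fit without 1 sample. The counts at the adjusted p, 77 higher and 65 lower, were 74 and 50 with DESeq2 and 67 to 76 and 52 to 60 without 1 sample. Calls, 9 higher and 5 lower, were 9 and 4 with DESeq2 and 8 to 9 and 3 to 6 without 1 sample (3 lower without NC replicate 2). They fell to 2 and 2 with limma on log2(FPKM + 1), which shrinks low genes by construction, to 8 and 3 on log2(FPKM + 0.1), and to 5 and 2 with glmTreat, which tests against a 2-fold change. The median log2 fold change of 0.04 was 0.0065 with upper quartile factors and 0.031 to 0.068 without 1 sample.

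The member rule moved counts by construction. A limit of 100 gave 393 genes, 115 lower at the adjusted p, 14 called lower and a median of 0.0083. A limit of 500 gave 102 genes, 40 higher, 29 lower, 3 and 2 called and a median of 0.077. Requiring 200 in each group left 3 and 3 calls. The 22 genes that overlap no other gene gave 7 higher, 8 lower and 0 and 1 called. An alternative chosen after seeing the data took the 184 genes with under 50% of their exonic bases in coding exons of their strand. It gave 67 and 58 at the adjusted p, 8 and 5 called and a median of 0.058.

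With the replicate number as a block, 72 were higher and 60 lower, with 9 and 5 called and a median of 0.044. Samples of the same number did not deviate together (correlations of -0.003, -0.066 and -0.054), so they share only a number. Of 832 values of 64 named members, 744 kept their direction and side of the threshold, 74 no longer passed, 5 newly passed and 9 changed sign. The sign changes were in members near 0: CH17-66N5.1 (-0.012 to 0.11 without 1 sample), NEAT1 (-0.16 to 0.057) and XXbac-BPG300A18.16 (0.013 with limma at either pseudocount, -0.062 to 0.047 without 1 sample). The cause of these was not tested.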

Other observations

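LINC01109 and LINC01111, neighbours whose nearest coding gene is ZFHX4, were among the lower genes that stayed short of a call. LINC01111 had 9.92 ± 0.57 CPM in NC and 5.09 ± 0.72 in OE (SD, n = 3 in each), a log2 fold change of -0.96, and LINC01109 had 13.2 ± 0.81 and 6.92 ± 0.51, a log2 fold change of -0.93. ZFHX4 itself was at 0.06. LINC01111 was called with upper quartile factors, without NC replicate 3 and without OE replicate 3. It reached the count limit through NC only, so the selection required it to differ. Among the higher genes, SLC16A1-AS1, opposite to the gene of the lactate carrier MCT1, had 22.1 ± 1.21 and 37.1 ± 1.78 CPM, a log2 fold change of 0.75 beside 0.46 for SLC16A1. GIHCG had 23.0 ± 1.23 and 39.97 ± 1.28, a log2 fold change of 0.80, beside -0.38 for ATP23 on the opposite strand. These genes were chosen for description after their values were seen.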
